A study of Mus musculus with 36 samples.

Results

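The comparison described here is that of mouse E14 embryonic stem cells labelled KO with E14 cells labelled WT for RREB1, both at day 0, the start of a 4-day course that the labels call EB. It covers 14577 autosomal genes of the 19834 genes in the deposited table. A gene was taken when it was placed on an autosome and reached a normalized value of 10 or more in at least 2 of the 8 libraries of that course. Of the 15227 genes that reached this level, 559 on the X, 6 on the Y and 85 with no position were set aside, among the last 23 whose names had been turned into dates.

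The series of 36 samples profiles pancreatic organoids, pancreatic adenocarcinoma cells and embryonic stem cells by RNA-seq, ChIP-seq and ATAC-seq. Day 0 has 2 libraries labelled WT and 2 labelled KO, and day 4 has the same. E14 is a mouse embryonic stem cell line, and all of these cells were grown in mouse embryonic stem cell medium. The labels name no clone, allele or deleted exon for KO and do not say whether the 2 libraries of a group came from separate cultures, so the p-values below measure only the spread between these libraries, which may be technical.

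RREB1 is a zinc finger transcription factor that binds DNA downstream of RAS signaling and can act together with SMAD proteins, the nuclear effectors of TGF-β and Nodal. Mouse embryonic stem cells are derived from the inner cell mass and are kept undifferentiated by a network of factors that includes OCT4 (Pou5f1), SOX2 and NANOG. Naive cells resemble the early epiblast, whereas formative and primed cells stand closer to the epiblast about to gastrulate.

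Taking the common step between the values of a library as 1 read, which no label states, depth lay between about 19890000 and 29080000 gene-assigned reads in the 4 day 0 libraries. Log2 values of the 2 libraries of a group correlated across genes with Pearson r of 0.9937 (labelled WT) and 0.994 (labelled KO), and libraries of different groups with r between 0.9429 and 0.9451. The 10 embryonic stem cell markers were at 5830 or more in both libraries labelled WT and at 3470 or more in both labelled KO, so the defining markers of the labelled cell type were present in both groups. The 6 tested Y-linked genes together summed to between 5110 and 6510 in the 4 WT libraries of both days and to between 18.2 and 31.5 in the 4 KO libraries. The groups therefore also differed in Y-linked RNA, and what a difference in line and the RREB1 label each contribute to the values below cannot be told apart.

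Rreb1 itself (chr13:37778382-37952005, build GRCm38.p6) was at 1086 and 1019 in the libraries labelled WT and at 2642 and 2830 in those labelled KO. Its RNA was thus higher in the cells labelled KO, by 1.38 ± 0.097 (log2, SE; limma, adjusted p = 2.35e-08). Reads are summed over the whole gene, and the labels do not say which part was altered, so this value does not check the loss of the protein. Because it runs against a loss of transcript, the groups are named throughout by their labels. At day 4 Rreb1 was at 1482 and 1586 in the WT libraries and 1921 and 1512 in the KO libraries, which overlap (adjusted p = 0.198).

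Between the groups 9815 of the 14577 genes (67.3%) differed at an adjusted p under 0.05 (limma, Benjamini-Hochberg over all genes that passed the filter). In the cells labelled KO 4936 genes (33.9%) were higher and 4879 (33.5%) lower. A log2 fold change of at least 1 was reached by 3290 of the called genes (22.6%), with 1301 higher (8.93%) and 1989 lower (13.6%). The median log2 fold change over all tested genes was -0.004, and the median size among called genes was 0.71. The groups did not overlap for 84.8% of tested genes. All fold changes are differences of mean log2(value + 1), labelled KO minus labelled WT. A list below is read against these shares, since calling most of its members is the background of this comparison.

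**Figure D1:**
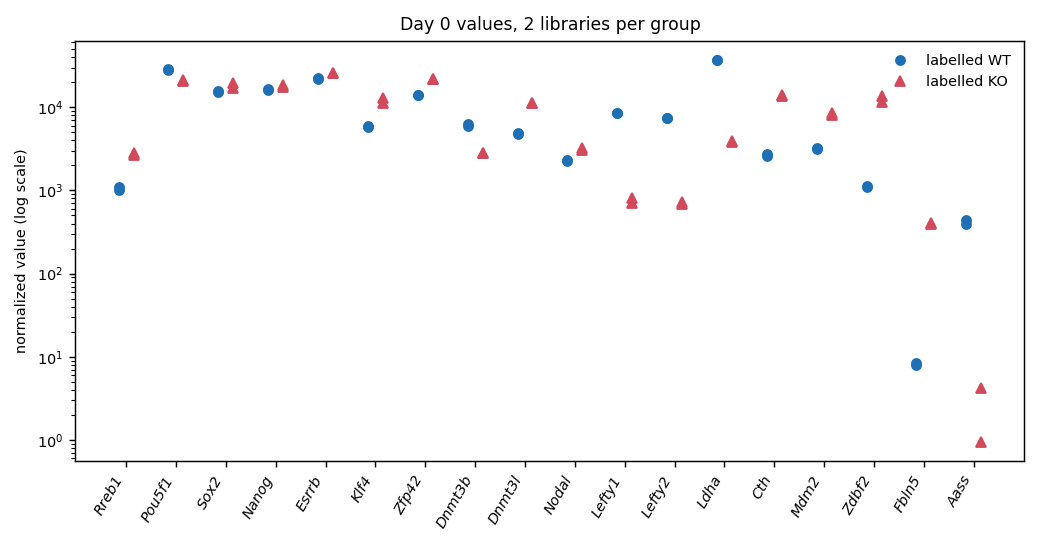
Normalized values at day 0 on a log axis for 18 genes named in the text, with 2 points per group (circles, libraries labelled WT; triangles, libraries labelled KO). The pluripotency factors Pou5f1, Sox2, Nanog and Esrrb lie close together in both groups, whereas Lefty1, Lefty2, Ldha and Aass are far lower and Cth, Zdbf2 and Fbln5 far higher in the libraries labelled KO.

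The 12 largest increases, between 3.88 and 5.45 on the log2 scale, were led by Fbln5 (chr12:101746565-101819119), which encodes the elastic fiber protein fibulin-5. Fbln5 was at 7.94 and 8.48 in the libraries labelled WT and at 402.9 and 399.6 in those labelled KO (5.45 ± 0.294, adjusted p = 1.84e-09). Other matrix genes among the 12 were close to the lower end of detection in cells labelled WT. Lox, a collagen and elastin crosslinking enzyme, was at 6.95 and 21.8 against 355.4 and 311.7. Tnc, which encodes tenascin C, was at 5.95 and 7.27 against 149.3 and 97.5. Col12a1, a fibril-associated collagen, was at 8.93 and 12.1 against 158.6 and 181.7.

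Genes for secreted factors and their antagonists were also among the 12. Inhbe, an inhibin beta subunit, was at 11.9 and 20.6 in the libraries labelled WT and at 406.3 and 388.2 in those labelled KO. Hhip, which encodes a Hedgehog-binding antagonist, was at 250.0 and 207.1 against 3333 and 3712. Nell1, a secreted glycoprotein gene, was at 1.98 and 4.85 against 184.9 and 163.5. Hrk, a BH3-only activator of apoptosis, was at 143.9 and 168.4 against 3097 and 3415 (4.38 ± 0.126, adjusted p = 8.33e-12). The others were Ptgs2 (cyclooxygenase 2, 4.30), the sugar transporter gene Slc45a1 (3.93), the tau tubulin kinase gene Ttbk1 (3.90) and the clustered protocadherin gene Pcdhga8 (3.88). Reads of Pcdhga8 are uncertain because its span overlaps 20 other tested genes with shared exons.

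The 12 largest decreases lay between -4.30 and -7.04. Aass, an enzyme of lysine breakdown (chr6:23072173-23132986), was at 444.5 and 398.5 in the libraries labelled WT and at 4.24 and 0.956 in those labelled KO, which is a handful of reads (-7.04 ± 0.383, adjusted p = 2e-09). Ndufa4l2, a hypoxia-responsive mitochondrial gene, fell from 964.4 and 943.6 to 11.9 and 6.69, and its span overlaps that of Shmt2. Aurkc, a meiotic Aurora kinase, was at 525.9 and 548.7 against 11.0 and 2.87. A2m, which encodes the protease inhibitor alpha-2-macroglobulin, was at 1189 and 1166 against 39.9 and 51.6.

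The remaining decreases included genes best known from germ cells and from nerve. Piwil4, a PIWI protein gene of the piRNA pathway, changed by -4.31 and Dmrtc2, a germ cell DM-domain factor, by -4.54. Grin1, an NMDA receptor subunit gene whose span overlaps Grin1os, changed by -4.32. Slc5a4b (-4.53), the mesothelin gene Msln (-4.30) and the uncharacterized 4921525O09Rik (-4.58) were also among the 12. Over the 24 genes the largest adjusted p was 1.04e-06, and the genes were chosen for the size of their fold changes, which are a description of the extremes.

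**Figure D2:**
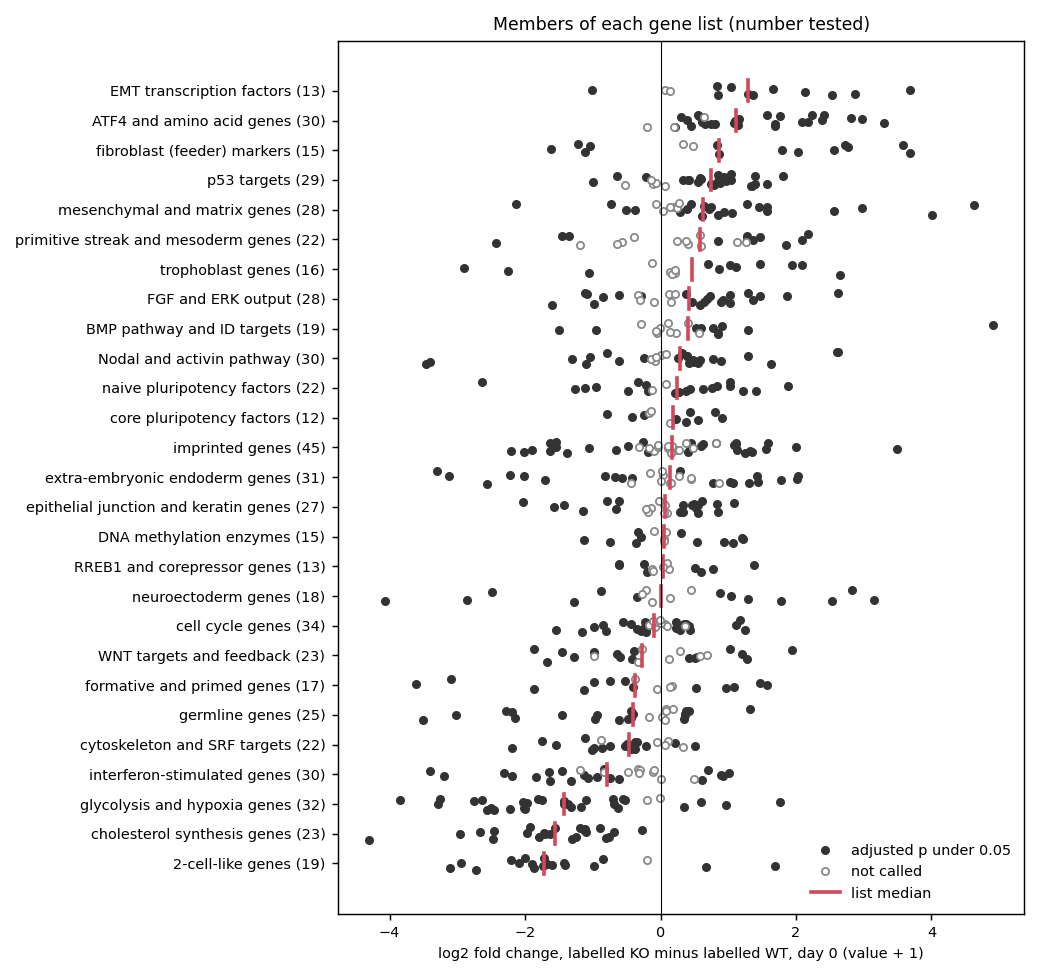
Log2 fold change at day 0 (labelled KO minus labelled WT, value + 1) of each member of the 27 gene lists, with the number tested in parentheses; filled points have an adjusted p under 0.05, open points do not, and the bar is the list median. All 23 cholesterol genes lie left of 0 and 27 of the 30 ATF4 genes are filled points right of 0, while the pluripotency lists straddle 0.

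The core pluripotency network was present in both groups. Of 12 core factors 6 were higher in cells labelled KO, 3 lower and 3 not called, with a list median of 0.19 (0.11 without the second library labelled KO). Pou5f1, which encodes OCT4, was at 27993 and 28711 in the libraries labelled WT and at 20830 and 21350 in those labelled KO (-0.43 ± 0.076, adjusted p = 0.000191). Nanog was at 15941 and 16458 against 17330 and 18478 and was not called (0.14 ± 0.066, adjusted p = 0.0655). In 2 of 16 alternatives it was called, each leaving out a day 4 library labelled KO, with the fold change still at 0.14. Sox2 was at 15432 and 15865 against 17051 and 19816, a call at 0.23 with an adjusted p of 0.0427 that was lost in 5 of 16 alternatives, with the highest p without the second library labelled KO (0.12, adjusted p = 0.358). Its span overlaps that of Sox2ot. Tdgf1, the Nodal co-receptor CRIPTO, fell by 0.79. Sall4 and Trim71, 2 regulators of self-renewal, rose by 0.80 and 0.90.

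Naive factors moved both ways, with 12 of 22 higher, 8 lower and a median of 0.25. Klf4, a LIF-responsive naive factor, was at 6019 and 5832 in the libraries labelled WT and at 11312 and 12975 in those labelled KO (1.03 ± 0.086). Klf5 rose from 1988 and 1886 to 5057 and 5202 (1.40 ± 0.074, adjusted p = 1.48e-09). Zfp42 (REX1), a marker of the naive state, was higher by 0.62 and Esrrb by 0.22; the Esrrb call was lost without the second library labelled WT (adjusted p = 0.0736). Tbx3, a naive factor chosen after its values were seen, was at 2191 and 2165 against 7560 and 8482 (1.88 ± 0.137). Against these, Dppa5a, a small RNA-binding protein gene of undifferentiated cells, fell from 42554 and 42789 to 18119 and 17345, and Dppa3 (Stella) fell from 256.0 and 245.9 to 39.9 and 39.2. Fgf4, the autocrine FGF of these cells, fell from 7816 and 7845 to 3474 and 3775.

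Formative and primed genes were lower more often than higher, with 8 of 17 lower, 5 higher and a median of -0.37 (-0.11 without the first library labelled KO). Fgf15, a ligand of the primed epiblast, fell from 516.9 and 579.0 to 48.4 and 40.2 (-3.60 ± 0.117, adjusted p = 1.65e-11). Car4, a carbonic anhydrase, fell from 240.1 and 221.7 to 21.2 and 32.5. Lef1, a WNT-responsive factor, fell from 1316 and 1353 to 324.9 and 412.1. Otx2 went the other way, at 1601 and 1687 against 2319 and 2433 (0.53 ± 0.076). Fgf5, the usual primed marker, was low in all 4 libraries, at 21.8 and 36.3 against 26.3 and 38.2, and was not called (0.17, adjusted p = 0.511). Its fold change ran from -0.19 to 0.52 over the alternatives, with the first and the second library labelled WT left out, and was called in the latter (adjusted p = 0.0472).

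Enzymes that set and erase DNA methylation changed in opposite directions (6 of 15 higher, 5 lower, median 0.05, a median that reached 0 when libraries were scaled to the same total). Dnmt3b, the main de novo methyltransferase of formative cells, was at 6280 and 5975 in the libraries labelled WT and at 2783 and 2829 in those labelled KO (-1.13 ± 0.086, adjusted p = 5.31e-08). Its cofactor Dnmt3l rose from 4788 and 4872 to 11137 and 11156, with a span that overlaps Aire. The 5-methylcytosine oxidases Tet2 and Tet3 rose by 1.22 and 1.07.

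Within the Nodal and activin pathway the ligand gene and its feedback inhibitors moved in opposite directions. Lefty1 and Lefty2 encode secreted inhibitors of Nodal and are direct targets of the pathway. Lefty1 was at 8427 and 8416 in the libraries labelled WT and at 714.2 and 814.6 in those labelled KO (-3.46 ± 0.092, adjusted p = 3.9e-12). Lefty2 was at 7408 and 7453 against 678.6 and 720.9 (-3.41 ± 0.076, adjusted p = 1.17e-12). Nodal was at 2310 and 2257 against 3024 and 3249, higher by 0.46 ± 0.081 (adjusted p = 0.000186). The groups did not overlap for any of the 3 genes, which was also so for 84.8% of all tested genes.

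Over the whole list of 30 pathway genes, these 3 included, 16 rose and 8 fell. The median was 0.29, and 0.18 under quantile normalization. Tgfbr1, a type I receptor of TGF-β, rose from 1113 and 1014 to 2529 and 2703. Fst, which encodes the activin-binding protein follistatin, rose from 33.7 and 29.1 to 196.8 and 196.0. Of 19 BMP pathway genes and ID targets 8 were higher and 2 lower (median 0.41, and 0.18 without the first library labelled WT). Bmp4 was at 509.0 and 463.9 against 849.1 and 906.4, and its target Id3 at 182.6 and 164.7 against 285.0 and 341.3. The receptor-regulated Smad1 and Smad5 rose by 0.91 and 0.60. Grem1, a BMP antagonist, was at 0 in both libraries labelled WT and at 30.5 and 27.7 in those labelled KO, at least 8.03-fold above the 3 reads that a count of 0 allows in the shallower WT library.

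Genes that report or restrain FGF and ERK signaling were higher in 15 of 28 cases and lower in 7 (median 0.42). The ERK phosphatase gene Dusp4 rose from 317.5 and 277.4 to 1756 and 1894 (2.62 ± 0.079, adjusted p = 1.13e-11). Dusp6, which also encodes an ERK phosphatase, rose from 1014 and 1111 to 2910 and 2943. Spred1, an inhibitor of RAS activation, rose from 2263 and 2258 to 5375 and 5715. Among the 7 that fell were the ligand gene Fgf4 and Ccnd1 (cyclin D1), which fell from 3426 and 3394 to 1691 and 1755, with a span that overlaps Oraov1. Egr1, an immediate early gene chosen after its values were seen, changed by -0.85.

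WNT targets and feedback genes were lower in 9 of 23 cases and higher in 7, with 69.6% called against 67.3% of all genes. Their median of -0.27 became 0.11 under quantile normalization and 0.14 without the first library labelled WT, so its sign depended on both. Lef1 and Tcf7, both nuclear partners of beta-catenin, fell by 1.86 and 1.46, although the span of Tcf7 overlaps Skp1a. Fzd7, a WNT receptor, rose from 2641 and 2659 to 5176 and 5601.

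Lists of metabolic genes were called almost throughout. All 23 cholesterol genes tested were lower in cells labelled KO, against 33.5% of all genes. The 2 groups did not overlap for any of the 23, against 84.8% of all genes without overlap. The median of the cholesterol genes was -1.56 and the largest adjusted p 0.0164. The values of the list summed to between 63850 and 64770 in the libraries labelled WT and to between 22030 and 22540 in those labelled KO. Among the members were Dhcr7, the last enzyme of cholesterol synthesis, at 2257 and 2175 against 328.3 and 371.0, and Fdps, which makes farnesyl diphosphate, at 3733 and 3866 against 704.9 and 672.1. Hmgcs1, which makes HMG-CoA, was at 9053 and 9158 against 2595 and 2656. Srebf2, the transcription factor gene of this pathway and chosen after its values were seen, was at 10496 and 9795 against 3016 and 3216.

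Genes of glycolysis and the hypoxia response were lower in 26 of 32 cases and higher in 4, with a median of -1.43, and 21 were lower by at least 1 (13.6% of all genes). Their values summed to between 442200 and 443600 in the libraries labelled WT and to between 213000 and 214600 in those labelled KO. Ldha, which makes lactate from pyruvate, was at 36750 and 37115 against 3809 and 3894 (-3.26 ± 0.076, adjusted p = 1.26e-12). Pfkl, a phosphofructokinase of glycolysis, was at 13511 and 13081 against 2004 and 1927. Tpi1 (triosephosphate isomerase, overlapping Spsb2) fell by 2.01, and Bnip3, a mitophagy gene induced by hypoxia, fell from 4293 and 4354 to 433.5 and 453.2. Reads of several glycolysis genes can be shared with processed pseudogenes, so their exact levels are uncertain. The 4 that rose, named after their values were seen, were Ddit4, Kdm3a, Vegfa and Slc2a3. Ddit4, an mTORC1 inhibitor that also stands in the next list, rose by 1.76.

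The ATF4 and amino acid genes were the converse, with 27 of 30 higher, none lower and 3 not called (33.9% of all genes were higher). Their median was 1.11, and 17 were higher by at least 1 (8.93% of all genes). Aldh1l2, a mitochondrial folate enzyme, was at 205.4 and 232.6 in the libraries labelled WT and at 2227 and 2092 in those labelled KO (3.30 ± 0.120). Cth, which makes cysteine from cystathionine, was at 2581 and 2742 against 13918 and 13820. Vldlr, a lipoprotein receptor gene, was at 274.8 and 249.5 against 2040 and 2073. Atf4 itself, chosen after its values were seen, was at 7529 and 7805 against 15765 and 16766 (1.08 ± 0.068).

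Of 29 p53 targets 21 were higher and 3 lower (median 0.75). Mdm2, the ubiquitin ligase of p53, rose from 3191 and 3161 to 8052 and 8589. Plk2 rose from 766.0 and 772.8 to 2624 and 2779, and Trp53inp1, a p53-induced cofactor, from 6916 and 6736 to 17906 and 17933. Sesn2, which is in both this list and the ATF4 list, rose from 3734 and 3452 to 10738 and 10670. Cdkn1a (p21), the best known arrest gene of the list and chosen after its values were seen, was among the 3 that fell, with a log2 fold change of -0.21.

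Promoter sequence was read for these 4 lists, from the 250 bases before each annotated start (RefSeq, build GRCm38.p6). A promoter was given for 11399 of the 14577 genes, 78.2%, and because this is below 80% any share over all genes is void as a check of a property and serves as a description only. The word TGATGCAA, on either strand, is the core that C/EBP and ATF dimers bind. It lay in 7 of 24 ATF4-list genes with a promoter (29.2%) and in 0.684% of all 11399 genes with one, the base of every share of all below. The list is defined by ATF4, so the share of an ATF word in it says nothing of labelled KO against labelled WT. Of genes called higher 0.823% held the word, and of those called lower 0.448%. With a log2 fold change of at least 1 these shares were 1.56% and 0.678%. ACGTG, the core of the hypoxia response element, lay in 17 of 29 glycolysis and hypoxia genes (58.6%) and in 24.3% of all. By direction of call it lay in 26.6% of genes called higher and 23.4% of those called lower. Among genes called with a log2 fold change of at least 1 it lay in 24.7% of those higher and 20.9% of those lower. The word was thus not more frequent among genes called lower as a whole. TCACCCCAC, a sterol regulatory word, lay in 1 of 15 cholesterol genes (6.67%) and in 0.675% of all. It lay in 0.695% of genes called higher and 0.5% of those called lower.

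These 3 words were among 7 chosen after the values were seen, and the other 4 gave the following shares. TGATGNAAN lay in 37.5% of ATF4-list genes and 2.49% of all, GACGTG in 31.0% of glycolysis genes and 8.55% of all, TCACNCCAC in 6.67% of cholesterol genes and 1.32% of all, and ACATG, a p53 half-site core, in 4 of 21 p53 targets and 20.3% of all. ACGTG lies within GACGTG, and the other pairs are stricter and looser forms of one word. The promoter stretches that follow are shown because they carry these words at 6 genes of the lists, with the word in capitals on the strand of the gene. A match says only that these letters stand there.
Chac1, chr2:119351019-119351098, plus strand: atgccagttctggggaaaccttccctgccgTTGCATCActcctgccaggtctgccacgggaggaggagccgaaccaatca
Atf3, chr1:191183394-191183473, minus strand: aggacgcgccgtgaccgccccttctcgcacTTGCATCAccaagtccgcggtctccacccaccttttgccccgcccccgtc
Slc7a11, chr3:50443630-50443709, minus strand: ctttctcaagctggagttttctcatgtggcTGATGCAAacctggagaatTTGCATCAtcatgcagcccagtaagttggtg
Ldha, chr7:46845629-46845784, plus strand: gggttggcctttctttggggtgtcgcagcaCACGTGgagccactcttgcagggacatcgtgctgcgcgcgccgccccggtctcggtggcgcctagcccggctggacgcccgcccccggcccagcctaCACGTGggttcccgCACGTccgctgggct
Bnip3, chr7:138909565-138909644, minus strand: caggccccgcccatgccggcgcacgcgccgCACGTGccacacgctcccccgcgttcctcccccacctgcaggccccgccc
Hmgcs1, chr13:119690184-119690263, plus strand: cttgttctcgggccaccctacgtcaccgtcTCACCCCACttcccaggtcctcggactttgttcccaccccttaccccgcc

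Beside these sequences stand the values of the genes. Chac1, a glutathione-degrading enzyme gene, was at 809.6 and 790.9 in the libraries labelled WT and at 3580 and 3679 in those labelled KO. Atf3, a stress-induced factor, was at 112.1 and 123.5 against 801.6 and 861.4. Slc7a11, the cystine transporter gene, holds the word on both strands before one of its starts and was at 142.9 and 155.0 against 451.3 and 514.4. Chac1, Atf3 and Slc7a11 were named after their values were seen. Ldha holds 5 matches of ACGTG counted over both strands and Bnip3 holds 2, since CACGTG reads the same on both.

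Words tied to RREB1 and SMAD were searched in the same promoters. CCCCACC, part of the RREB1 binding preference, lay before 21.0% of genes called higher, 22.1% of those called lower and 21.1% of all with a promoter. AAACCACC, another such word, lay before 0.926%, 0.685% and 0.851%. The SMAD word CAGAC lay before 44.8%, 46.6% and 46.2%. Among genes called with a log2 fold change of at least 1, CCCCACC lay before 24.0% of those higher and 25.2% of those lower, AAACCACC before 1.04% and 0.746%, and CAGAC before 45.8% and 49.3%. In the lists CCCCACC lay before 8 of 21 p53 targets, 7 of 29 glycolysis and hypoxia genes, 2 of 15 cholesterol genes and 1 of 24 ATF4-list genes. No test was made on these shares.

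Of 13 transcription factors that regulate epithelial-mesenchymal transition 10 were higher, 1 lower and 2 not called, with a median of 1.29, which was 1.05 with the gene that had a group at 0 set to its bound. The mean value over the 4 libraries was under 50 for 6 of the 13. Snai1, which encodes SNAIL, was at 36.7 and 37.6 in the libraries labelled WT and at 89.9 and 106.1 in those labelled KO (1.37 ± 0.208, adjusted p = 4.43e-05). Zeb1 was at 345.3 and 312.5 against 799.0 and 815.5. Zeb2, whose span overlaps Zeb2os, was at 40.7 and 46.0 against 134.0 and 144.4. Prrx1, a mesenchymal homeobox gene, was at 0 and 1.21 against 20.4 and 16.3.

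Mesenchymal and matrix genes were higher in 18 of 28 cases and lower in 4 (median 0.63). Besides Lox and Tnc, Ahnak, a large scaffold protein gene, rose from 1851 and 1891 to 4002 and 5088. Loxl2, a lysyl oxidase related to Lox, fell from 833.5 and 794.6 to 187.5 and 181.7. Epithelial junction and keratin genes moved both ways (12 of 27 higher, 7 lower, median 0.07, and near 0 under quantile normalization). Of these genes 70.4% were called, against 67.3% of all genes. The tight junction gene Tjp1 rose from 5346 and 4546 to 8669 and 9104, whereas its relative Tjp3, which overlaps Apba3, fell from 986.3 and 942.3 to 309.6 and 337.5. Grhl2, an epithelial transcription factor, rose by 1.09 and Pkp2, a desmosome gene, fell by 1.14. Cdh1 (E-cadherin), named after its values were seen, had a log2 fold change of -0.13 and was not called.

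Cytoskeletal and SRF target genes were lower in 15 of 22 cases and higher in 2 (median -0.47). Acta1, skeletal alpha-actin, fell from 319.5 and 365.8 to 113.7 and 88.9. The calponin genes Cnn1 and Cnn2 fell by 2.19 and 1.01, and Tagln2, a transgelin, by 0.98.

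The 7 defining markers of the primitive streak and mesoderm summed to between 145.9 and 180.5 in the libraries labelled WT and to between 183.6 and 200.2 in those labelled KO. Among the 7 markers 1 was called higher and 1 lower. Over the longer list of this lineage genes were higher in 8 of 22 cases, lower in 3 and not called in 11, with a median of 0.59, and 17 of the 22 had a mean value under 50. T (Brachyury), the defining streak factor, was at 6.95 and 8.48 in the libraries labelled WT and at 12.7 and 11.5 in those labelled KO, not called (0.59, adjusted p = 0.0839) except under quantile normalization (0.95, adjusted p = 0.00868). Eomes was at 87.3 and 113.9 against 137.4 and 127.2 (0.40, adjusted p = 0.0658). Eomes was called in 5 of 16 alternatives. These were quantile normalization (adjusted p = 0.0152), the replicate block (adjusted p = 0.0356) and leaving out the second day 0 library labelled WT (0.59) or either day 4 library labelled WT. Without a day 4 library the fold change stayed at 0.40, so the call turned on the spread shared with day 4. Without the first day 0 library labelled WT it was 0.21. Mixl1 was at 4.96 and 1.21 against 12.7 and 11.5 and was called (1.85 ± 0.444, adjusted p = 0.00203), with 1.13 (adjusted p = 0.0344) without the second library labelled WT. Gsc was at 13.9 and 10.9 against 2.55 and 6.69, a call (-1.35, adjusted p = 0.0323) that was lost in 7 of 16 alternatives. Among these were leaving out the first library labelled KO (-0.79, adjusted p = 0.257), either library labelled WT (adjusted p = 0.139 and 0.0647) and quantile normalization (adjusted p = 0.148). Kdr, the VEGF receptor 2 of early mesoderm, was at 30.8 and 27.9 against 138.3 and 132.9, and the ligand gene Fgf8 fell from 20.8 and 21.8 to 3.39 and 2.87.

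Of 31 extra-embryonic endoderm genes 10 were higher and 10 lower. That is 64.5% called, near the 67.3% of all genes. The median of 0.14 was 0.35 under quantile normalization and about 0 without either library labelled KO. Apoe rose from 8809 and 9328 to 23194 and 25753. Hnf4a, an endoderm nuclear receptor, fell from 134.9 and 112.6 to 10.2 and 13.4, and Cubn, an endocytic receptor gene, fell from 223.2 and 224.1 to 25.5 and 23.9. P4ha1, a collagen prolyl hydroxylase that is also in the hypoxia list, fell from 2395 and 2332 to 520.8 and 494.3. The 10 markers of this layer summed to between 598.3 and 650.4 in the libraries labelled WT and to between 594.6 and 600.4 in those labelled KO. Among the 10 markers 2 were called higher and 4 lower.

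Neuroectoderm genes were higher in 7 of 18 cases and lower in 6, with a median of 0.01 that turned to -0.04 when libraries were scaled to the same total. The share called was 72.2%, near the 67.3% of all genes. Stmn2, a microtubule regulator gene, fell from 9689 and 10529 to 1792 and 1821, and the intermediate filament gene Nes from 981.3 and 1053 to 421.6 and 418.8. Sox21 rose from 189.5 and 197.4 to 1062 and 1188, and Tubb3 from 1995 and 1996 to 4178 and 4038. The 7 markers of this layer, Nes included, summed to between 1485 and 1601 against between 1635 and 1653. Among the 7 markers 4 were called higher and 2 lower.

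Of 16 trophoblast genes 8 were higher and 3 lower (median 0.46), with 68.8% called against 67.3% of all genes. Peg10, an imprinted retrotransposon-derived gene, rose from 3760 and 3828 to 7806 and 8578, and Wnt7b from 98.2 and 126.0 to 396.1 and 466.6. Plet1 fell from 110.1 and 117.5 to 12.7 and 16.3, and the keratin gene Krt7 from 210.3 and 210.8 to 45.8 and 41.1. The 6 trophoblast markers found in the table summed to between 291.9 and 293.7 against between 137.7 and 143.4. Krt7 is one of them and made up most of the sum in the libraries labelled WT. Of the 5 markers tested, 3 were called higher and 2 lower, so the lower sum does not describe the markers as a set.

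Fibroblast markers were examined because feeder cells can accompany stem cells. Of 15 tested 9 were higher and 4 lower (median 0.86). The sum of the 8 defining markers was between 573.5 and 609.3 in the libraries labelled WT. In those labelled KO it was between 504.8 and 671.0, which overlaps. The sum joins markers that moved both ways, since of the 7 tested 4 were called higher and 2 lower. Among the 8 defining markers 3 were under 10 in all 4 libraries, including Lum, which was at 0 throughout. Col1a1 rose from 56.6 and 72.7 to 266.3 and 191.2 and Col5a2 from 13.9 and 23.01 to 285.0 and 176.9, whereas Thy1 fell from 308.6 and 313.7 to 112.8 and 90.8 and Tagln, which overlaps Pcsk7, from 1090 and 1410 to 585.3 and 554.5. The part of feeder or other cells in the matrix genes above was not tested.

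Genes of the 2-cell-like state, a rare state of embryonic stem cell cultures that resembles the 2-cell embryo, were lower in 16 of 19 cases and higher in 2 (median -1.72). Zscan4a was at 641.0 and 667.4 in the libraries labelled WT and at 168.8 and 138.6 in those labelled KO (-2.09 ± 0.163, adjusted p = 6.09e-08). Usp17la was at 152.8 and 133.2 against 20.4 and 15.3, and Usp17lb at 179.6 and 157.5 against 28.8 and 21.0. The Zscan4 and Usp17l genes are near-identical copies, so reads may be divided among them and the members do not count as separate observations. Calcoco2, an autophagy receptor gene overlapping Ttll6, rose by 1.70. In bulk RNA, fewer cells of a kind and less RNA per cell cannot be told apart.

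Germline genes were lower in 13 of 25 cases and higher in 6 (median -0.41). Mael, of the piRNA pathway, fell from 1230 and 1245 to 268.0 and 288.7. Tuba3a, a testis tubulin with a near-identical copy, fell by 2.20, and Rpl10l, a testis ribosomal protein gene, by 1.45. Fkbp6 rose from 484.2 and 506.3 to 1244 and 1242.

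Imprinted genes, expressed from one parental allele, were higher in 17 of 45 cases and lower in 14 (median 0.17, and 0.05 without the second library labelled KO). Of the list 68.9% were called, near the 67.3% of all genes (33.9% higher, 33.5% lower). Zdbf2 (chr1:63200358-63314576) had the largest difference, at 1141 and 1084 in the libraries labelled WT and at 11599 and 13628 in those labelled KO (3.498 ± 0.11, adjusted p = 1.44e-11), with a span that overlaps Gpr1. Impact rose from 4484 and 4422 to 10614 and 10497, and Jade1 from 9278 and 8920 to 19318 and 19230. Smoc1 fell from 1153 and 1208 to 374.9 and 387.2. Total counts do not show which allele was read.

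Interferon-stimulated genes were lower in 15 of 30 cases and higher in 5 (median -0.79, and -0.51 under quantile normalization). Bst2 (tetherin) fell from 1648 and 1687 to 332.5 and 398.7 (-2.19 ± 0.121). Oasl2 fell from 65.5 and 48.5 to 5.09 and 3.82, and Irf1, an interferon regulatory factor, from 1291 and 1340 to 636.2 and 610.9. Ifitm1, one of a family with similar copies, fell from 5500 and 6072 to 2333 and 2285.

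Cell cycle genes were lower in 15 of 34 cases and higher in 10 (median -0.10, and -0.19 under quantile normalization). Ccne1 (cyclin E1) fell from 4344 and 4299 to 1909 and 1976, Aurkb from 2739 and 2764 to 1554 and 1509 and the imprinted inhibitor gene Cdkn1c from 567.5 and 575.3 to 180.7 and 209.4. Cdkn1b (p27) rose from 1381 and 1369 to 2705 and 3299. Besides Rreb1, 3 of the 13 genes of the corepressor list rose and 4 fell, and the median of 0.03 turned to -0.10 under quantile normalization. Ctbp2, a corepressor, rose by 0.77, whereas Mta1 and Sin3a, of the NuRD and SIN3 complexes, fell by 0.62 and 0.61.

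Along the chromosomes the differences were spread over all 19 autosomes. Autosome medians ran from -0.108 on chromosome 7 to 0.17 on chromosome 18, and the signs of those nearest 0 turned with the scaling. In runs of 50 neighboring tested genes 98.4% of the 13646 overlapping runs had a median within 0.5 of 0. The highest run, at 1.083 on chromosome 18, held the clustered protocadherins, cell surface proteins whose promoters are chosen variably from cell to cell. Of 21 tested gamma protocadherin genes 20 were higher and 1 lower, with a median of 1.46, and their values summed to between 725.5 and 757.1 in the libraries labelled WT and to between 2311 and 2405 in those labelled KO. These genes share exons, so a read can fit many of them. The family was picked because of this run.

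The lowest run lay at chr4:140727355-145195037, with a median of -0.925, 31 genes lower and 8 higher. It held Padi2, a peptidylarginine deiminase gene, which was at 694.5 and 695.3 in the libraries labelled WT and at 147.6 and 151.1 in those labelled KO and was chosen after its values were seen. The next lowest, chr7:43671971-45062672 and chr17:33380174-34616562, both had a median of -0.608. At day 4 the medians of these 3 runs were -0.039, 0.133 and -0.117, and that of the protocadherin run was -0.013. The gamma protocadherin genes had a day 4 median of -0.53. Their day 4 sums lay between 1170 and 1551 in the libraries labelled WT and between 578.3 and 622.9 in those labelled KO. The direction of the sum was thus the reverse of day 0, although the member Pcdhga8 was still higher (3.03).

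**Figure D3:**
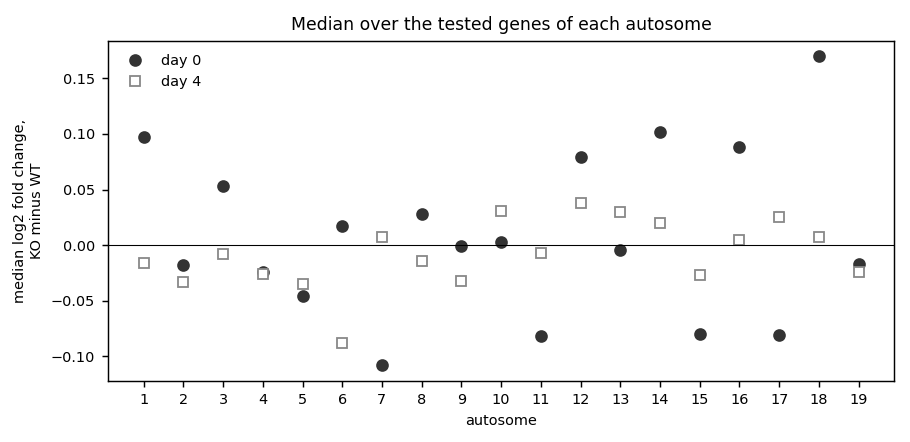
Median log2 fold change (labelled KO minus labelled WT) over the tested genes of each autosome at day 0 (filled circles) and day 4 (open squares). Day 0 medians lie between -0.108 (chromosome 7) and 0.17 (chromosome 18), so no autosome as a whole stands far from 0.

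The same comparison at day 4 uses 4 other libraries. There 8164 genes (56.0%) were called, 4064 higher and 4100 lower in the cells labelled KO. Of the 9815 genes called at day 0, 4120 (42.0%) were called in the same direction at day 4 and 1673 (17.0%) in the opposite direction. The 4120 make up 50.5% of the day 4 calls. Across the 14577 genes the fold changes of the 2 days had a Pearson r of 0.21, given as a description across genes, which are not independent.

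Groups differed in how far they held. Of the 23 cholesterol genes lower at day 0, 22 were lower at day 4, with a median of -1.31. Of the 27 ATF4-list genes higher at day 0, 25 were higher at day 4 (median 1.29). Of the 24 p53 targets called at day 0, 19 were called the same way and 2 the opposite way. In the glycolysis and hypoxia list 8 of the 30 called genes went the same way and 6 the opposite way, and the day 4 median was 0.05. Ldha, at 63343 and 63483 against 42199 and 36769 at day 4, was lower by 0.69 there, and Ndufa4l2, among the largest decreases at day 0, was higher by 1.04.

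Lineage genes stood differently at day 4. All 22 tested genes of the primitive streak and mesoderm list were lower in cells labelled KO at day 4 (median -5.67), including T, Mixl1, Kdr and Snai1. Of all 14577 genes 4100 were called lower at day 4. Mesenchymal and matrix genes, of which 18 were higher at day 0, were lower in 23 of 28 cases at day 4 (median -1.33). Lefty1 was at 1528 and 1247 in the day 4 libraries labelled WT and at 2570 and 2721 in those labelled KO, and Lefty2 at 2785 and 2498 against 5121 and 5728, so both were higher there. Nodal was higher at both days (0.46 and 0.98). Fbln5, Inhbe, Hhip, Slc45a1 and Ttbk1 were among the 9 of the 12 largest increases that were also higher at day 4, and 8 of the 12 largest decreases were also lower. Going the other way, 2 increases (Col12a1 and Tnc) were called lower at day 4 and 1 decrease (Ndufa4l2) higher. Of all genes called at day 0 with a log2 fold change of at least 1, 43.7% were called the same way at day 4.

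**Figure D4:**
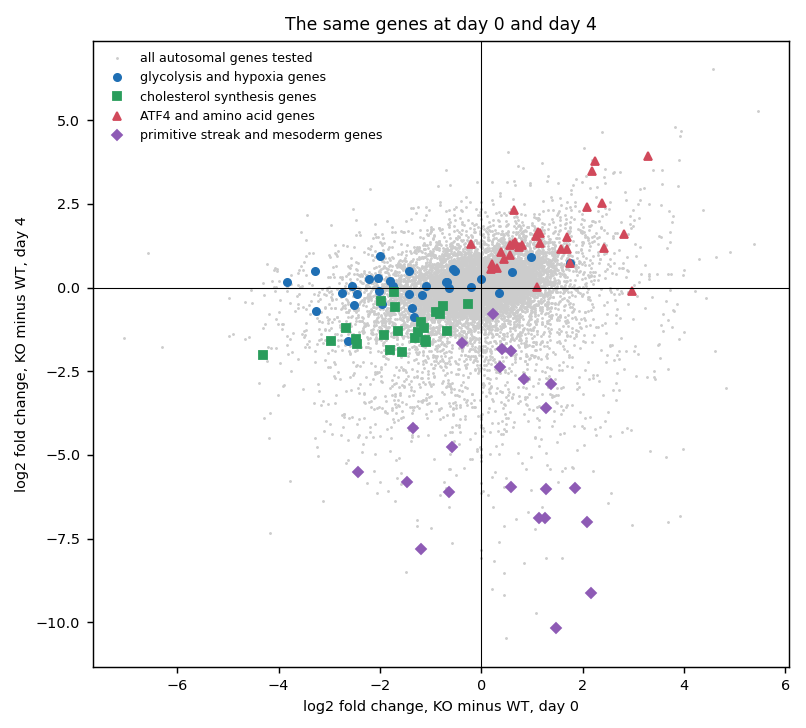
Log2 fold change (labelled KO minus labelled WT, value + 1) at day 0 (horizontal axis) against day 4 (vertical axis) for each autosomal gene tested (gray) and 4 gene lists (symbols). Cholesterol genes lie below 0 and ATF4 genes mostly above 0 on both axes, glycolysis genes lie mostly left of 0 at day 0 and on both sides of 0 at day 4, and primitive streak and mesoderm genes lie below 0 at day 4.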

How the data were processed

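RNA was extracted with a column kit at an integrity number above 9.5 and made into TruSeq v2 libraries, per the labels' protocols; this kit does not mark strand, so a gene and an overlapping partner cannot be told apart. Build mm10 and the tools HTSeq 0.6.1p1 and Bowtie2, as well as DESeq2 3.4, are listed without role or order, per the submitters' processing notes. The authors deposited a table of normalized counts, a signal per gene, and its values were used as deposited. Within 0.001 the values of each column were whole multiples of 1 step, from which depth and the 3-read bounds were read. The step of 1 library lies so close to 1 that it was not accepted as a recovered read, so no count model was run and these depths are estimates. No columns were left out of that table (0 columns not used).

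Values were transformed as log2(value + 1), filtered (10 or more in at least 2 of 8 libraries) and fitted with limma 3.58.1 in R 4.3.3 (trend, all 4 groups, which share 1 estimate of spread), with Benjamini-Hochberg adjustment over all genes that passed the filter; the threshold was 0.05. The procedure was also run on simulated data in which few genes changed and a single setting of spread served all genes. That setting differs from these data, so the run is no check of the calls above. Gene positions came from RefSeq (GRCm38.p6, matched by symbol).

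The members and gene lists were chosen with earlier results of these data known. Named were Rreb1, the 12 largest changes in each direction among called genes with a day 0 mean of at least 50 and groups apart, up to 4 members of each list with the smallest adjusted p, and 17 pluripotency and early lineage genes; others are marked as chosen after their values were seen. Some genes that this rule names are not reported here. In 9 lists 15 members had a day 0 group at 0; set to the bound of 3 reads, these moved a list median by at most 0.25. Such bounds cover counting error only. Same-numbered libraries deviated from their group means with correlations between -0.0335 and 0.0905, so the replicate numbers were not taken to pair them. Alternatives are given in the closing section.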

Additional observations from a re-analysis of the deposited data

Results flagged for a closer look

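Of the 136 named genes 31 were called at both days in opposite directions. Among all genes called at day 0 the share was 17.0%. The difference between the days was called (limma interaction term) for 117 of the 136. Its share over all tested genes was not worked out. Many of the 136 were named for their differences at day 0, so this count is a description only. For the 31 the interaction call adds no support, since they were chosen for opposite calls. Each value below is the log2 fold change (labelled KO minus labelled WT) at day 4 minus that at day 0; where a gene was near 0 in a group its size depends on the pseudocount.

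Lower at day 0 and higher at day 4 were 12 genes. They included the Nodal inhibitors Lefty1 (4.40) and Lefty2 (4.44), the hypoxia-responsive Ndufa4l2 (7.62) and Bnip3 (3.78), the ligands Fgf15 (4.12) and Fgf4 (2.38), and the pluripotency genes Pou5f1 (1.67), Tdgf1 (1.56) and Dppa5a (1.87). The others were the junction genes Tjp3 (2.17) and Pkp2 (1.46) and the testis ribosomal gene Rpl10l (1.74).

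Higher at day 0 and lower at day 4 were 19 genes. Kdr gave -11.31 and Mixl1 -7.85, both genes of early mesoderm. The matrix genes Col1a1 (-7.18), Col12a1 (-5.45), Tnc (-5.33) and Ahnak (-3.97), and the transition factors Prrx1 (-6.12), Zeb2 (-5.23), Snai1 (-4.25) and Zeb1 (-3.03) went the same way. In the activin and BMP pathways Fst gave -4.78, Bmp4 -3.57, Id3 -3.39, Smad1 -1.35 and Smad5 -0.84. Peg10 (-3.19), Calcoco2 (-3.16), Tet3 (-1.86) and Spred1 (-1.46) completed the set.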

How the results depend on the processing

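The counts of called genes stayed within 1.5 times their main values in all 64 alternatives. With 1 of the 8 libraries left out, genes called at day 0 ranged from 8311 to 10136, those higher from 4240 to 5091, those lower from 4071 to 5045 and those with a log2 fold change of at least 1 from 3046 to 3313; under the other settings (pseudocount of 0.5 or 5, no filter, a value of 50 in at least 2 libraries, quantile normalization, the same total in each library, only the 4 day 0 libraries, the replicate block) the total ranged from 8849 to 10076 and the larger changes from 2375 to 3801. Scaling to the same total gave 4556 higher and 5242 lower. With a replicate block, which the labels' shared numbers permit but the pairing check did not bear out, 9881 genes were called, 4970 higher and 4911 lower. Of 2174 refits of named genes 13 lost and 9 gained a call, all for Eomes, Esrrb, Fgf5, Gsc, Nanog, Sox2 or T, and none reversed. Counts of list members, an alternative added after seeing the data, moved by over 1.5 times in 27 of 864 refits. List medians moved by more than 1 SD between libraries in 87 of 324 refits and autosome medians in 68 of 228, and the median of the neuroectoderm list ran from -0.07 to 0.11, that of the corepressor list from -0.10 to 0.09 and that of the methylation enzymes from 0 to 0.10. Genes with a log2 fold change of at least 1 at day 0 were called the same way at day 4 in 43.7% of cases, against 42.0% of all called. The planned edgeR and DESeq2 fits on recovered reads were not run, so how a count model would call these genes was not tested. With 2 libraries per group the spread rests on few values, and genes under the 3-read floor are not resolved.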
